A study of Mus musculus with 19 samples.

Results

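Transcript levels were compared for 10 genes of the naive pluripotent state: Klf2, Klf5, Esrrb, Tbx3, Tfcp2l1, Zfp42, Dppa3, Prdm14, Nr0b1 and Tcl1. They were chosen by name, as known naive-state genes, from the 52143 gene identifiers of the count table, and all 10 were among the 19700 genes that passed the filter on low counts. Naive pluripotency is the state of the epiblast before implantation, and mouse embryonic and induced pluripotent stem cells can hold it in culture. It rests on a network of transcription factors that sustain one another and that take input from LIF through STAT3, from Wnt through the repressor TCF7L1, and from FGF through ERK, which drives cells out of the state. As the state is left, these genes fall at different times while genes of the formative and primed states, such as Otx2 and Fgf5, rise.

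The RNA came from mouse induced pluripotent stem cells (iPSC) and the study concerns leptin receptor signalling. Primary fibroblasts of embryonic day 14.5 embryos, bred from OB-R db/+ heterozygous mice, were infected with the STEMCCA lentivirus for Oct4, Sox2, Klf4 and cMyc. Control lines are wild type at the leptin receptor gene (4 lines, 7 libraries), and db/db lines carry its mutation on both alleles (4 lines, 8 libraries). In corrected lines the db/db mutation was repaired with CRISPR-Cas9 (2 lines, 4 libraries), and the labels do not name the db/db line they came from. All 3 groups share the fibroblast origin and the lentivirus, whose copies of Klf4, Oct4 and Sox2 are not separated from the cell's own transcripts in these counts. None of the 10 genes studied here is carried by the lentivirus. A count over the whole Lepr gene does not check the genotype, since the db mutation acts on splicing. The sources used here give neither the sex of the embryos nor the culture medium.

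Each library held 27333665 to 41203436 estimated counts. Duplicate libraries were summed per line, and levels are CPM (counts relative to library size, scaled by TMM). Control lines are named A5 or B1 and db/db lines db5 or db7, and each name covers 2 lines, told apart by a leading a or b. What these letters mean is not given, so counting a and b as separate lines is an assumption. In full, the titles of control lines also carry B6 (such as aB6_A5) and those of db/db lines db (such as adb_db5). No meaning is assumed here for B6, and a difference in background between the groups was not tested. The biological coefficient of variation between libraries was 2.07% to 10.6% (median 3.26%) for the pair of lines under a name, between libraries of the same duplicate number, 3.55% to 7.51% (median 5.37%) for duplicates of a line, 2.25% to 6.35% for the pair of corrected lines, and 16% to 28.5% across names. Lines of a name are therefore near copies in their transcripts, the 10 lines stand for 5 distinct kinds, and p-values over lines measure a spread that is in part between near copies. The second library of the a line of db7 had 4.81% of its counts on Gm42418, a transcript overlapping ribosomal RNA sequence, against 0.0688% to 0.514% in the others. For 4 of the 10 genes duplicates differed in one direction. In all 7 control and db/db lines with both libraries, Klf2, Esrrb and Tfcp2l1 were higher in the first and Prdm14 in the second, and the a line of A5 has only a first library. The label iPSC was checked against 6 pluripotency markers (Pou5f1, Sox2, Nanog, Utf1, Sall4 and Lin28a). Pou5f1 (Oct4) and Sox2 are also carried by the lentivirus, so their levels may not come from the cell's own genes alone. In control lines they were at 1499 ± 23 and 470.4 ± 36 CPM. The summed level of the 6 markers was 3232 to 3423 CPM in control, 3304 to 3512 in db/db and 2951 to 2975 in corrected lines. No marker was under 1 CPM in all lines of a group. In bulk RNA, fewer cells that express a gene and less of its RNA per cell cannot be told apart.

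The RefSeq table of promoters (GRCm38.p6) held 6 of the 10 genes, with 2 promoters for Esrrb. Klf2, Nr0b1 and Tcl1 are shown because they differed most between lines among these, and Zfp42 because it differed least and held the most motif matches. The stretches are chr8:72318812-72319032 (forward strand), chrX:86191525-86191763 (forward), chr12:105222794-105222987 (reverse) and chr8:43307010-43307259 (reverse), each printed 5′ to 3′ and ending before the annotated start. Capitals mark matches, on either strand, to the 9 motifs searched.
Klf2: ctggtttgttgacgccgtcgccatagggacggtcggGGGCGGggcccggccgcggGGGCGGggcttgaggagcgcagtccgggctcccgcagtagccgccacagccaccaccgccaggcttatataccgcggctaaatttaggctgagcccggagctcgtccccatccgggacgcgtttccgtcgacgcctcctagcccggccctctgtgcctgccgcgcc
Nr0b1: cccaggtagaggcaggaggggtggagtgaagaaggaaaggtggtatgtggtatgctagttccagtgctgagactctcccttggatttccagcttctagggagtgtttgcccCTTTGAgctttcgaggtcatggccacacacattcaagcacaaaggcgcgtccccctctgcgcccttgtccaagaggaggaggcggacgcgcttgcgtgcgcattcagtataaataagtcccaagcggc
Tcl1: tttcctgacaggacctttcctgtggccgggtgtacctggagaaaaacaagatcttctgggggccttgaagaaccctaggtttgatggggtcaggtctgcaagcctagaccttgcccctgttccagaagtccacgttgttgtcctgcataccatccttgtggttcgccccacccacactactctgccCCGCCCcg
Zfp42: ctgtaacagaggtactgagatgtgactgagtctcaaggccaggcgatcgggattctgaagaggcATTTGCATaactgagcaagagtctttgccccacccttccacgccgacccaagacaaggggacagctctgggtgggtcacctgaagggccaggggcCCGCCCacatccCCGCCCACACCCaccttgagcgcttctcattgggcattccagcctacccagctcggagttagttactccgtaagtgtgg
The GC box GGGCGG matched in Klf2, in Zfp42 and in Tcl1, where 1 of 2 matches lies past the printed stretch, and it occurs in 35.66% of the 32851 promoters of the table. The TCF motif CTTTGA matched in Nr0b1 (16% of promoters). Zfp42 held a POU octamer ATGCAAAT on the reverse strand (1.735% of promoters) and a KLF motif GGGTGTGG (3.562%), which overlaps one of its GC boxes. The STAT motif TTCCNGGAA (1.148%), the ESRRB motif TCAAGGTCA (0.4231%), the SOX motif CATTGTT (3.784%), the T-box motif AGGTGTGA (1.275%) and the PRDM14 motif GGTCTCTAA (0.2557%) matched in 0 of the 7 promoters of these genes. A match is a run of letters in a window of 300 bases and says nothing of binding.

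Per length of exon, Nr0b1 was highest and Dppa3 lowest on average. Nr0b1 had a mean of 190.2 ± 66 CPM per kilobase (SD, n = 10 lines). Esrrb (113.2 ± 15), Klf2 (111.5 ± 32) and Tcl1 (107.7 ± 24) followed and did not differ beyond their spread over lines. Next came 4 genes whose ranges over lines also overlapped, Tbx3 (45.42 ± 7.3), Klf5 (38.39 ± 4.6), Zfp42 (37.25 ± 3.1) and Tfcp2l1 (36.66 ± 6.2). Prdm14 lay lower, at 16.85 ± 3.3 CPM per kilobase. Dppa3 was lowest at 3.378 ± 1.2, with 41 to 162 counts per library, whereas each of the other 9 genes had at least 1039. The ranges of Nr0b1 (107.2 to 290.2) and Esrrb (90.66 to 134.9) overlapped.

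**Figure D1:**
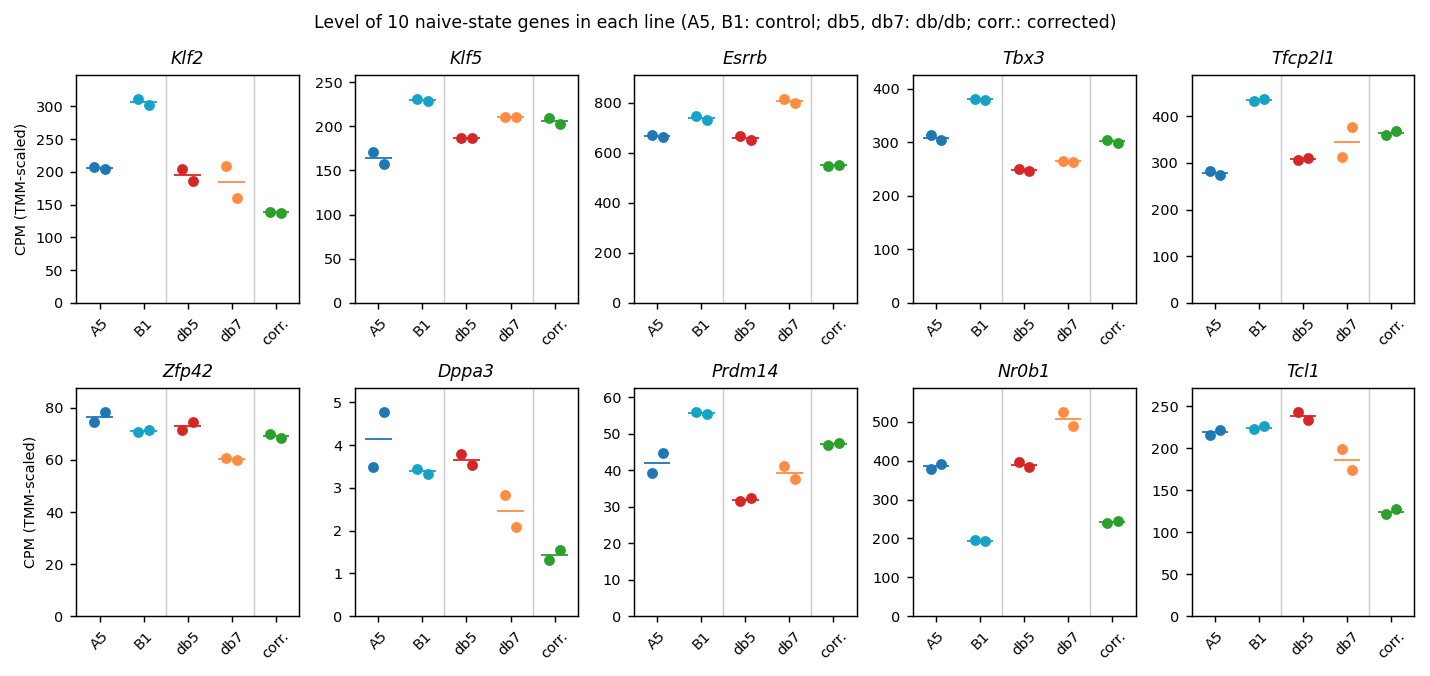
Level of each of the 10 genes in TMM-scaled CPM (y axis, from 0, a separate scale per gene) by line name (x axis). Points are lines, 2 per name, short bars are their means, and vertical lines part control, db/db and corrected. B1 lines are highest for Klf2, Klf5, Tbx3, Tfcp2l1 and Prdm14, and corrected lines lowest for Klf2, Esrrb, Dppa3 and Tcl1.

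Few of the 10 genes differed between db/db and control lines. Tbx3 (1.34-fold) and Prdm14 (1.37-fold) fell and 0 of 10 rose, beside 9.5% of all tested genes that fell and 7.41% that rose (16.9% in all). After correction, Esrrb, Dppa3, Nr0b1 and Tcl1 were lower than in db/db lines, 4 of 10 with 0 rising, beside 18% of all genes falling and 18.7% rising (36.7% in all). Against control lines, the corrected lines had lower Klf2, Esrrb, Dppa3 and Tcl1, again 4 of 10 with 0 rising, beside 17% of all genes falling and 16.2% rising (33.2% in all). Read against these shares, counts of 2, 4 and 4 called among 10 are near the background. The median log2 change of the 10 genes was -0.14 in db/db against control (0.00 over all genes), -0.18 in corrected against db/db (0.02) and -0.23 in corrected against control (-0.01). The comparisons share lines, so they are not independent of one another. Called means a Benjamini-Hochberg adjusted p under 0.05 over all 19700 genes in edgeR's quasi-likelihood test. Log2 fold changes are given ± SE, and the groups have n = 4, 4 and 2 lines.

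**Figure D2:**
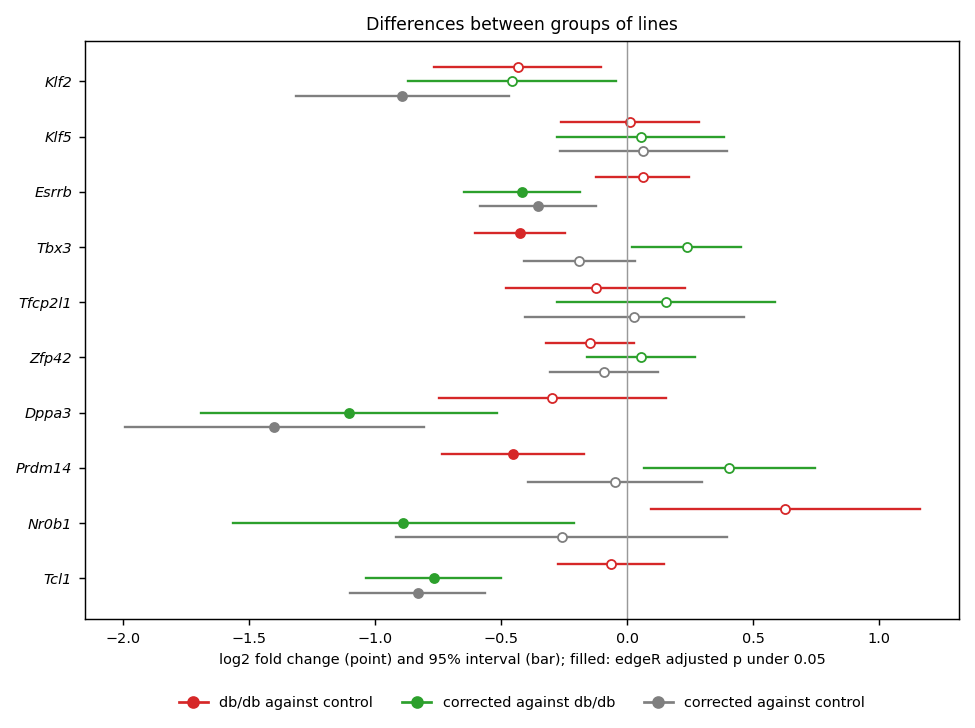
Log2 fold change (x axis, points) with its 95% interval (bars) for each gene (y axis) in the 3 group comparisons (4 control, 4 db/db and 2 corrected lines). Filled points passed edgeR's test at an adjusted p under 0.05, and all 10 filled points lie below 0.

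Klf2 and Klf5 are Krüppel-like zinc finger factors that, with Klf4, hold the naive network in a partly interchangeable way. Klf2 (ENSMUSG00000055148, chromosome 8, 72319033 to 72321656) was at 207.8 and 203.9 CPM in the A5 control lines and at 311.1 and 301.9 in the B1 control lines. It was at 203.7 and 185.5 CPM in db5, 208.2 and 160.6 in db7, and 139.1 and 136.9 in corrected lines. The B1 lines were thus high, both corrected lines were below all others, and A5 and db/db lines overlapped. Klf2 fell in corrected against control lines (-0.89 ± 0.19, edgeR adjusted p = 0.0063). That call ended without either corrected line (adjusted p = 0.062 and 0.067), where the lone corrected line is assumed to vary like the other groups. The db/db minus control difference was -0.44 (95% interval -0.77 to -0.10, adjusted p = 0.072), and that of corrected from db/db lines -0.46 (-0.87 to -0.04, adjusted p = 0.079). The first passed the test under 6 of 23 alternatives (adjusted p = 0.0066 to 0.044), among them DESeq2 (0.042) and edgeR without either A5 line (0.041 and 0.036), and the second under 2 of 21 (0.021 and 0.044). In both comparisons the alternatives include a log2 ratio of mean CPM, which has no test. Duplicate libraries of Klf2 differed by up to 1.385-fold, in the a line of B1.

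Klf5 (ENSMUSG00000005148, chromosome 14, 99298691 to 99315036) was at 171.3 and 157.9 CPM in A5, 231 and 228.7 in B1, 186.5 and 186.9 in db5, 211 and 210.8 in db7, and 209.9 and 202.5 in corrected lines. The control lines bracketed all others, with A5 lowest and B1 highest. Its group differences had intervals of -0.26 to 0.28 (db/db against control), -0.28 to 0.39 (corrected against db/db) and -0.27 to 0.40 (corrected against control). Klf4, the third of these factors, was at 619.5 ± 60, 658.8 ± 27 and 598.2 ± 3.7 CPM in control, db/db and corrected lines and was not called between groups (adjusted p = 0.41, 0.23 and 0.68).

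Esrrb and Nr0b1 are nuclear receptors without a known natural ligand. Esrrb binds DNA and is a main target of TCF7L1 repression, and Nr0b1 (Dax1) has no usual DNA-binding domain and acts by binding partners such as Oct4. Esrrb (ENSMUSG00000021255, chromosome 12, 86361117 to 86521628) was at 671.4 and 662.6 CPM in A5, 745.6 and 730.1 in B1, 668.9 and 649.6 in db5, and 815.6 and 800.1 in db7 lines. The corrected lines, at 548.2 and 551.5 CPM, lay below all others. Esrrb fell from db/db to corrected lines (-0.42 ± 0.10, edgeR adjusted p = 0.011) and against control lines (-0.35 ± 0.10, adjusted p = 0.025). Both calls ended without either corrected line (adjusted p = 0.079 to 0.15), with library size as the only scaling (0.10 and 0.13), and with each shared name as a unit (0.058 and 0.088). The call against control lines also ended without the a or the b line of B1 (0.054 and 0.051). Its difference between db/db and control lines was 0.06 (interval -0.12 to 0.25).

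Nr0b1 (ENSMUSG00000025056, chromosome X, 86191764 to 86195947) was at 378.9 and 392.8 CPM in A5 and at 195.4 and 193.8 in B1 lines. It was at 395.5 and 385 CPM in db5, 524.6 and 488.1 in db7, and 239.2 and 245.2 in corrected lines. A5 and db5 lines overlapped, db7 lines were high, and B1 and corrected lines low. Nr0b1 fell from db/db to corrected lines (-0.89 ± 0.30, edgeR adjusted p = 0.043), a call that ended under 10 of 21 alternatives, among them the fits without each db/db line in turn (adjusted p = 0.05 to 0.086). The db/db minus control difference was 0.63 (interval 0.09 to 1.16, adjusted p = 0.099). It passed under 5 of 23 alternatives, among them DESeq2 (adjusted p = 0.044), limma-voom (0.0039) and edgeR without the b line of A5 (0.048). The median over X-chromosome genes differed by 0.14 in the same comparison. With 1 control name as high as db5 and the other at 194.6 ± 1.2 CPM, the group mean of 290.2 ± 110 describes neither.

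Tfcp2l1 is a factor of the grainyhead family that STAT3 activates, and Tbx3 is a T-box factor linked to PI3K signalling and to the balance with extraembryonic endoderm. Tfcp2l1 (ENSMUSG00000026380, chromosome 1, 118627945 to 118685168) was at 282.3 and 273.7 CPM in A5, 433 and 436.8 in B1, 307.1 and 310.8 in db5, 312.5 and 376.5 in db7, and 359.3 and 367.9 in corrected lines. B1 lines stood highest and A5 lowest, and the a line of db7 lay near db5 while the b line lay near the corrected lines. Its group differences had intervals of -0.48 to 0.23, -0.28 to 0.59 and -0.40 to 0.46.

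Tbx3 (ENSMUSG00000018604, chromosome 5, 119670669 to 119684724) was at 314.4 and 303.5 CPM in A5, 380.9 and 379.5 in B1, 250.7 and 246.8 in db5, 265.2 and 263.3 in db7, and 305.2 and 299.1 in corrected lines. Every db/db line lay below every control line, and the corrected lines lay between db/db lines and B1, near A5. Tbx3 was the only one of the 10 genes whose db/db and control lines did not overlap, which held for 23.3% of all tested genes. It fell in db/db against control lines (-0.43 ± 0.08, edgeR adjusted p = 0.0073). Of 23 alternatives, 22 kept this. Among them is the log2 ratio of mean CPM, which has no test and was judged by its size (-0.43). Taking each shared name as a unit, 2 names against 2, the call ended (-0.43, adjusted p = 0.20). In corrected against db/db lines the difference was 0.24 (interval 0.02 to 0.45, adjusted p = 0.081), which passed under 4 of 21 alternatives (0.012 to 0.036). The difference of corrected from control lines was -0.19 (-0.41 to 0.03, adjusted p = 0.16). An antisense transcript, Tbx3os1, shares 115 exon bases with Tbx3, at a mean of 1.896 CPM.

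Prdm14 and Dppa3 tie the naive state to germ cells and to low DNA methylation. Prdm14 represses FGF receptor and DNA methyltransferase genes, and Dppa3 (Stella) protects DNA methylation in the egg and restrains UHRF1. Prdm14 (ENSMUSG00000042414, chromosome 1, 13113457 to 13127163) was at 39.22 and 44.75 CPM in A5, 55.85 and 55.3 in B1, 31.63 and 32.27 in db5, 41.02 and 37.65 in db7, and 46.94 and 47.41 in corrected lines. The db5 lines were low and the B1 lines high, while A5 and db7 lines overlapped. Prdm14 fell in db/db against control lines (-0.45 ± 0.13, edgeR adjusted p = 0.035), a call that ended under 9 of 23 alternatives, among them a fit of the compared lines alone (adjusted p = 0.059) and one with each shared name as a unit (0.26). The difference of corrected from db/db lines was 0.40 (interval 0.07 to 0.74, adjusted p = 0.061), and from control lines -0.05 (-0.39 to 0.30). The first of these passed the test under 8 of 21 alternatives (adjusted p = 0.018 to 0.046), among them limma-voom (0.024), a fit of the compared lines alone (0.032) and the fit without the a line of A5 (0.033).

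Dppa3 (ENSMUSG00000046323, chromosome 6, 122626410 to 122630272) was at 3.5 and 4.768 CPM in A5, 3.45 and 3.322 in B1, 3.794 and 3.525 in db5, 2.842 and 2.08 in db7, and 1.305 and 1.544 in corrected lines. The corrected lines were lowest and db7 lines next, and control and db5 lines overlapped. Dppa3 fell from db/db to corrected lines (-1.10 ± 0.26, edgeR adjusted p = 0.0095) and against control lines (-1.40 ± 0.27, adjusted p = 0.0036). The first call ended without either corrected line (adjusted p = 0.098 and 0.053) and with each shared name as a unit (0.051), the second without corrected line 1 (0.056). Its db/db minus control difference was -0.30 (interval -0.75 to 0.15). Counts were few, and duplicate libraries differed by up to 1.5-fold.

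Zfp42 (Rex1), a zinc finger gene derived from Yy1 and a common reporter of the naive state, varied least of the 10 genes, 1.304-fold between its lowest and highest line. Zfp42 (ENSMUSG00000051176, chromosome 8, 43295063 to 43306980) was at 74.6 and 78.32 CPM in A5, 70.9 and 71.64 in B1, 71.45 and 74.6 in db5, 60.66 and 60.05 in db7, and 69.9 and 68.63 in corrected lines. The db7 lines alone stood apart, below all others. Its printed promoter held the octamer and KLF matches, and none of the other 6 promoters did. Its group differences had intervals of -0.32 to 0.03, -0.16 to 0.27 and -0.31 to 0.12. Near copies among the lines narrow such intervals.

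Tcl1 encodes a small protein that binds and activates AKT kinases. Tcl1 (ENSMUSG00000041359, chromosome 12, 105216750 to 105222793) was at 216.1 and 222.3 CPM in A5, 223.1 and 226.1 in B1, 242.9 and 234 in db5, 198.8 and 173.8 in db7, and 122.3 and 127.1 in corrected lines. Its printed promoter held a GC box and no other motif searched. Both corrected lines lay below every other line, and control lines spanned only 216.1 to 226.1 CPM. Tcl1 fell from db/db to corrected lines (-0.77 ± 0.12, edgeR adjusted p = 0.0012) and against control lines (-0.83 ± 0.12, adjusted p = 0.00098). Each of these 2 calls was kept under every alternative with a test, with adjusted p-values of at most 0.023. The alternatives run (21 and 20) include, for the first call, the log2 ratio of mean CPM, which has no test. The db/db minus control difference was -0.06 (interval -0.27 to 0.15).

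Corrected and db/db lines did not overlap for 7 of the 10 genes (Klf2, Esrrb, Tbx3, Dppa3, Prdm14, Nr0b1 and Tcl1), beside 60.6% of all tested genes. Corrected and control lines did not overlap for 5 (Klf2, Esrrb, Zfp42, Dppa3 and Tcl1), beside 61.7%. With 2 corrected lines that are near copies, such separation is common in the whole table. The corrected name had the lowest mean of the 5 names for 4 of the 10 genes and the highest for 0, against 27.9% and 29.8% of all tested genes. B1 had the highest mean for 5 of 10, against 19% of all genes. These counts are descriptions, and no test was made of them.

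Lines of different names also differed within a genotype. B1 lines had higher Klf2 (0.57 ± 0.09), Klf5 (0.48 ± 0.04), Esrrb (0.15 ± 0.04), Tbx3 (0.30 ± 0.04), Tfcp2l1 (0.65 ± 0.07) and Prdm14 (0.40 ± 0.06) than A5 lines, and lower Nr0b1 (-0.99 ± 0.04). That is 6 of 10 up and 1 down, beside 19.1% of all genes up and 19.7% down (38.8% in all). The edgeR adjusted p-values were 4e-08 for Nr0b1, 0.0079 for Esrrb and between these for the others. Zfp42 (-0.10), Dppa3 (-0.31) and Tcl1 (0.03) were not called, at adjusted p = 0.071, 0.17 and 0.68. Esrrb's call ended without the a line of B1 or the b line of A5 (0.071 and 0.054). These tests compare 2 lines with 2, and since lines of a name are near copies they measure only the spread between such copies.

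Among db/db lines, db7 had higher Klf5 (0.18 ± 0.04), Esrrb (0.29 ± 0.04), Prdm14 (0.30 ± 0.06) and Nr0b1 (0.38 ± 0.04) than db5, and lower Zfp42 (-0.27 ± 0.04), Dppa3 (-0.58 ± 0.17) and Tcl1 (-0.36 ± 0.06). These 4 rises and 3 falls stand beside 20.4% and 21.5% of all genes (42% in all), with edgeR adjusted p-values of 4.5e-05 (Nr0b1) to 0.018 (Dppa3). Klf2 (-0.08), Tbx3 (0.09) and Tfcp2l1 (0.16) were not called (adjusted p = 0.53, 0.081 and 0.086), though Tbx3 and Tfcp2l1 each passed under 4 of 21 alternatives. The 2 db7 lines were themselves apart for Dppa3 (2.842 and 2.08 CPM), Klf2 (208.2 and 160.6), Tfcp2l1 (312.5 and 376.5) and Tcl1 (198.8 and 173.8). Without the a line of db7, the difference was -0.28 for Klf2 and 0.28 for Tfcp2l1. Both then passed edgeR's test, but with 1 line left in db7 its spread is taken from the near copies under other names. The call of Dppa3 ended without the b line of db7 (-0.37, adjusted p = 0.10) or without the a line of db5 (-0.53, 0.10), and that of Klf5 in a fit of the compared lines alone (0.053).

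**Figure D3:**
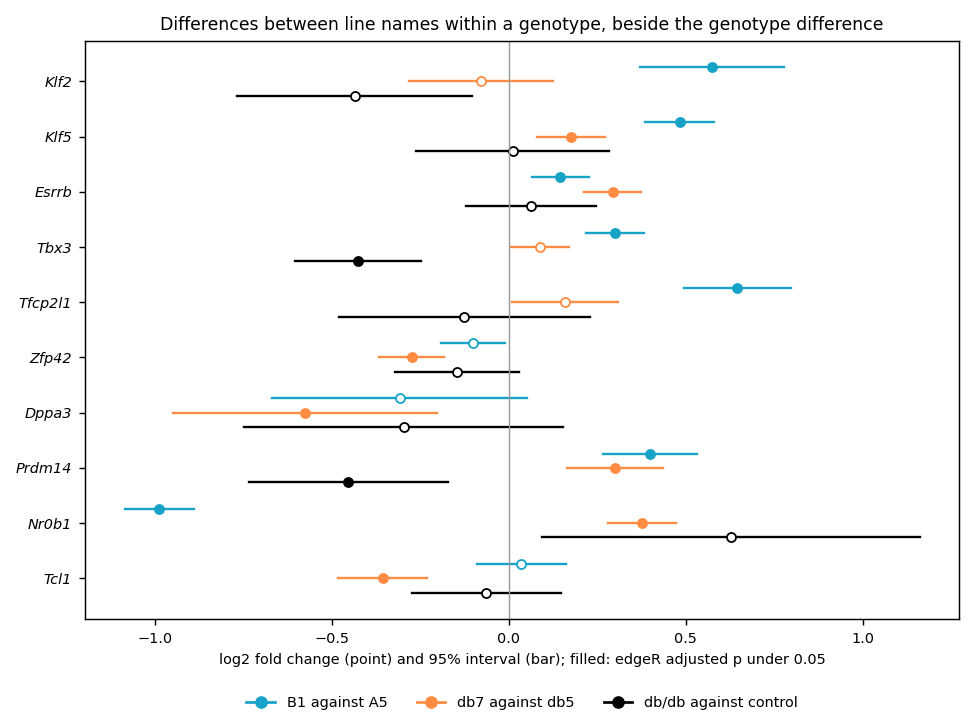
Log2 fold change (x axis, points) with its 95% interval (bars) for each gene (y axis), for B1 against A5 lines, db7 against db5 lines (2 lines each) and, in black, db/db against control lines (4 each). Filled points passed edgeR's test at an adjusted p under 0.05. For 8 of the 10 genes the farther of the coloured points lies farther from 0 than the black one.

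The larger of the 2 differences between names exceeded the difference between db/db and control lines for 8 of the 10 genes (all but Tbx3 and Prdm14). The same held for 14208 of the 19700 tested genes, or 72.12%. For Tbx3 the genotype difference was 0.43 in size against 0.30 and 0.09 between names, and for Prdm14 0.45 against 0.40 and 0.30. For Nr0b1 it was 0.63 against 0.99 and 0.38.

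Since the db/db names differ, the corrected lines were also set against each. Against db5, Klf5 (0.14), Tbx3 (0.28), Tfcp2l1 (0.24) and Prdm14 (0.56) were higher and Klf2 (-0.50), Esrrb (-0.26), Dppa3 (-1.36), Nr0b1 (-0.69) and Tcl1 (-0.94) lower. These 4 rises and 5 falls stand beside 31.9% and 30.1% of all genes (62% in all), with edgeR adjusted p-values of at most 0.014. The call of Klf5 ended without either db5 line or without corrected line 1 (adjusted p = 0.068, 0.065 and 0.12), and that of Tfcp2l1 without the a line of db5 or corrected line 2 (0.063 and 0.068). That of Esrrb ended with library size as the only scaling (-0.09, adjusted p = 0.051). Against db7, Tbx3 (0.19), Zfp42 (0.20) and Prdm14 (0.26) were higher and Klf2 (-0.42), Esrrb (-0.56), Dppa3 (-0.79), Nr0b1 (-1.06) and Tcl1 (-0.58) lower. These 3 rises and 5 falls stand beside 30.8% and 29.6% (60.4% in all), with adjusted p-values of at most 0.0034, and each of the 8 calls was kept under all 19 alternatives. Zfp42 was not called against db5 (-0.08, interval -0.17 to 0.01), and Klf5 (-0.03, -0.13 to 0.06) and Tfcp2l1 (0.08, -0.07 to 0.23) were not called against db7. The comparisons share the corrected lines. With library size as the only scaling, the difference of Zfp42 from db5 (0.10) and that of Klf5 from db7 (0.14) turned in sign.

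Other genes of the naive network moved in both directions. These and the lists that follow are counted at the level of lines, and their calls were not recomputed under other settings. Their counts stand beside 7.41% of all tested genes rising and 9.5% falling in db/db against control lines. The shares were 18.7% and 18% in corrected against db/db, and 16.2% and 17% in corrected against control lines. Of 20 further naive-state genes, 2 rose and 5 fell in db/db against control lines (median log2 -0.07), 4 rose and 5 fell in corrected against db/db lines (0.06), and 2 rose and 5 fell in corrected against control lines (-0.02). The homeobox factor Nanog was at 543.6 ± 80, 410 ± 21 and 547.2 ± 7.7 CPM in control, db/db and corrected lines. It fell in db/db against control lines (-0.41 ± 0.10, adjusted p = 0.019) and rose in corrected against db/db lines (0.42 ± 0.12, 0.018). Gbx2, a homeobox gene that STAT3 activates, rose from 26.98 ± 2.3 to 41.28 ± 2 CPM in db/db lines (0.61 ± 0.07, adjusted p = 0.00075) and was at 28.49 ± 0.63 in corrected lines. Nr5a2, an orphan nuclear receptor, was at 92.84 ± 4.1, 111.6 ± 12 and 60.31 ± 2.3 CPM in the 3 groups and fell in corrected against db/db lines (-0.89 ± 0.10, 0.00019).

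Of 11 genes of the LIF and STAT3 pathway, which activates Tfcp2l1 and Klf4, 3 rose and 2 fell in db/db against control lines, 4 and 5 in corrected against db/db, and 4 and 4 in corrected against control lines. Stat3 was at 71.6 ± 0.66, 61.11 ± 1.8 and 39.13 ± 0.79 CPM in control, db/db and corrected lines, and fell in corrected against control lines (-0.87 ± 0.06, adjusted p = 2.7e-05). Its feedback inhibitor Socs3 was at 308.5 ± 52, 214.8 ± 42 and 125.6 ± 4.2 CPM (-1.30 ± 0.20 in corrected against control lines, 0.0013). The kinase Jak2 rose in the same comparison, from 3.851 ± 0.5 CPM to 9.914 and 10.09 CPM (1.38 ± 0.21, 0.0014). Tfcp2l1 and Klf4 were at 0.03 and -0.05 in that comparison and were not called, and their link to this pathway was not tested.

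Of 11 tested genes of the Wnt and TCF7L1 pathway (12 listed), 2 rose in db/db against control lines, 1 rose and 5 fell in corrected against db/db, and 2 rose and 2 fell in corrected against control lines. Tcf7l1, the repressor of Esrrb and other naive genes, was at 161.2 ± 5.3, 165.7 ± 8.9 and 131.6 ± 3.2 CPM in the 3 groups. It fell in corrected against db/db lines (-0.33 ± 0.06, adjusted p = 0.0035), as did Esrrb, and a link between them was not tested. The Wnt target Axin2 rose in that comparison, from 4.619 ± 0.75 to 7.565 ± 0.41 CPM (0.71 ± 0.18, 0.011), and Lef1 fell (-1.50 ± 0.34, 0.007). Mean Lef1 was 9.924 CPM in db5, 5.119 in db7 and 2.652 in corrected lines.

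Of 14 FGF and ERK genes, 7 rose and 1 fell in db/db against control lines, 0 rose and 7 fell in corrected against db/db, and 0 rose and 4 fell in corrected against control lines. The feedback inhibitor Spry4 was at 193.1 ± 19, 303.5 ± 40 and 184.6 ± 1.8 CPM (0.65 ± 0.10 in db/db against control, adjusted p = 0.0031, and -0.72 ± 0.13 in corrected against db/db, 0.0022). The ERK target Egr1 fell in db/db against control lines (-0.38 ± 0.10, 0.025). Of 16 primed and formative genes, 7 rose and 1 fell, 3 rose and 6 fell, and 4 rose and 2 fell in the same order of comparisons. Otx2 was at 22.92 ± 2.4, 37.92 ± 13 and 9.593 ± 0.94 CPM, rising in db/db against control (0.73 ± 0.21, adjusted p = 0.041) and falling in corrected against db/db lines (-1.98 ± 0.28, 0.00074). By name, mean Otx2 was 23.87 CPM in A5, 21.97 in B1, 26.91 in db5 and 48.94 in db7. Its db7 minus db5 difference (0.86 ± 0.09) was thus larger than that between db/db and control lines. Fgf5 stayed under 1.5 CPM in every line and was higher in db/db than in control lines (1.84 ± 0.45, 0.022). Its mean was 0.5009 CPM in db5 and 1.428 in db7, against 0.3694 in A5 and 0.1789 in B1. Lists share a few genes, such as Stat3, Fgf4, Lef1 and Dnmt3a.

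Of 10 general pluripotency genes, 3 rose and 1 fell in db/db against control, 0 rose and 4 fell in corrected against db/db, and 3 rose and 4 fell in corrected against control lines. Pou5f1 (Oct4), the core factor of all pluripotent states, was at 1499 ± 23, 1542 ± 75 and 1293 ± 8.5 CPM and fell in corrected against db/db lines (-0.25 ± 0.06, adjusted p = 0.0086). Sox2 fell there too, from 657.5 ± 62 to 403.3 ± 14 CPM (-0.71 ± 0.10, 0.00068). The summed pluripotency markers given above were likewise lowest in corrected lines, and their part in the lower Esrrb, Dppa3, Nr0b1 and Tcl1 was not tested.

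Of 9 DNA methylation enzymes, 1 rose and 1 fell in db/db against control, 2 rose and 0 fell in corrected against db/db, and 4 rose and 2 fell in corrected against control lines. The list includes methyltransferase genes that Prdm14 represses and Uhrf1, whose product Dppa3 restrains, beside demethylation genes. Dnmt3l, a partner of the de novo methyltransferases, was at 256 ± 66, 339.3 ± 56 and 528 ± 1.6 CPM and rose in corrected against control lines (1.04 ± 0.21, adjusted p = 0.0049). Dnmt3a rose in db/db against control lines (0.69 ± 0.17, 0.024), where Prdm14 fell. Mean Dnmt3a was 50.86 CPM in db5 and 31.67 in db7, against 23.3 in A5 and 27.98 in B1. In corrected against control lines Dnmt3a also rose (0.81 ± 0.20, 0.013), where Prdm14 was at -0.05 and not called. A link of Dnmt3a to Prdm14 was not tested. The demethylase Tet3 rose in corrected against db/db lines, from 19.83 ± 2.2 to 46.35 ± 0.38 CPM (1.22 ± 0.12, 0.00012).

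Of 7 germ cell genes that act beside Prdm14 and Dppa3, 1 rose and 1 fell, 2 rose and 2 fell, and 1 rose and 3 fell in the 3 comparisons. The germ cell specifiers Prdm1 (from 14.62 ± 0.83 to 6.567 ± 0.82 CPM) and Tfap2c (from 31.26 ± 0.8 to 10.91 ± 0.14) fell in corrected against db/db lines (-1.15 ± 0.15 and -1.52 ± 0.14, adjusted p = 0.00047 and 0.0001), while Prdm14 was at 0.40 there and was not called. Of 23 tested close relatives of the 10 genes (28 listed), 4 rose and 1 fell, 4 rose and 8 fell, and 5 rose and 8 fell. Yy2, an X-linked relative of Zfp42, rose from 9.35 ± 0.45 to 20.09 ± 4.6 CPM in db/db lines (1.10 ± 0.15, 0.0013) and fell to 10.58 ± 0.11 in corrected lines, while Zfp42 was not called in either comparison.

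Summed levels of markers of other cell types differed between lines. A marker is counted here as under 1 CPM only if it was so in every line of the group or name. The summed level of 10 fibroblast markers was 354.4 to 465.8 CPM in control, 193.8 to 264.4 in db/db and 294.4 to 351.9 in corrected lines, with 0 of 10 under 1 CPM in any group. That of 9 matched 2-cell-like markers (10 listed) was 22.59 to 28.64, 3.112 to 10.11 and 12.15 to 14.33 CPM. In control, db/db and corrected lines 0, 4 and 3 of these 9 were under 1 CPM. By name, the number was 1 in A5, 4 in B1, 4 in db5 and 8 in db7. For both lists the db/db lines were lowest, as for Tbx3, and the corrected lines lay between the other groups. In db/db against control lines, 9 of 10 fibroblast and 8 of 9 tested 2-cell-like markers fell and 0 rose, beside 9.5% and 7.41% of all genes. The summed level of 10 primitive endoderm markers was 94.11 to 112.4, 62.89 to 85.76 and 68.59 to 74.62 CPM, with 4, 5 and 2 of them under 1 CPM. Of these, 2 rose and 4 fell in db/db against control lines. In corrected against db/db lines 7 rose and 0 fell, beside 18.7% and 18% of all genes. The summed level of 10 trophoblast markers was 25.92 to 46.55, 21.49 to 50.87 and 54.03 to 55.35 CPM, with 4 of 10 under 1 CPM in each group. The trophoblast sums of control and db/db lines overlapped and differed by name, at 44.22 to 46.55 CPM in A5, 25.92 to 26.97 in B1, 49.2 to 50.87 in db5 and 21.49 to 21.84 in db7. The sums of 8 neural markers were 86.19 to 119.2, 60.84 to 87.63 and 37.13 to 38.41 CPM, and those of 8 mesoderm markers 3.738 to 4.295, 2.474 to 3.05 and 4.315 to 4.985, with 3 and 7 markers under 1 CPM in each group. No marker was at 0 in all lines of a group, except 1 mesoderm marker in control lines. The part of these cells in the differences of the 10 genes was not tested.

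The 10 genes lie on chromosomes 1 (Tfcp2l1 and Prdm14), 5 (Tbx3), 6 (Dppa3), 8 (Klf2 and Zfp42), 12 (Esrrb and Tcl1), 14 (Klf5) and X (Nr0b1) of GRCm38. Of the genes that share a chromosome, Prdm14 fell in db/db against control lines while Tfcp2l1 was not called, and the other 4 were not called there. Esrrb and Tcl1, both on chromosome 12, both fell in corrected against db/db lines (-0.42 and -0.77) and in corrected against control lines (-0.35 and -0.83). In B1 against A5 lines the median over 401 genes of chromosome 6 was 0.28, and Dppa3 on that chromosome was at -0.31 (interval -0.67 to 0.05). Nanog, also on chromosome 6, was at 0.37 ± 0.04 in the same comparison (means of 474.1 CPM in A5 and 613 in B1). On the other 6 chromosomes the median in that comparison was at most 0.03 in size. In db/db against control lines the median of chromosome 6 was -0.12, and Nanog was at -0.41. The part of a shift of the whole chromosome in the differences of Nanog was not tested.

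For the 3 genes with at least 2-fold between their lowest and highest line, the nearest patterns were sought among 10064 other protein-coding genes whose mean level was 5 CPM or more, by the root-mean-square distance of centred log2 CPM over 10 lines. Klf2 (2.272-fold) was nearest to Pcbp1, an RNA-binding protein gene, at a distance of 0.075, then to Ppp2r3d (0.080) and Saysd1 (0.089). Dppa3 (3.653-fold) was nearest to F11r (0.15), which encodes a junctional adhesion protein, to the ubiquitin hydrolase gene Uchl1 (0.20) and to Serpinb6c (0.21). Nr0b1 (2.707-fold) was nearest to Gsta4 (0.073), a glutathione transferase gene, to Tmem216 (0.10) and to Arhgap26 (0.11). The 3 genes' own root-mean-square deviations were 0.38, 0.57 and 0.50, so the neighbours of Klf2 and Nr0b1 followed them more closely than those of Dppa3. The 10 genes were left out of the candidates, so this search does not show whether they follow one another.

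**Figure D4:**
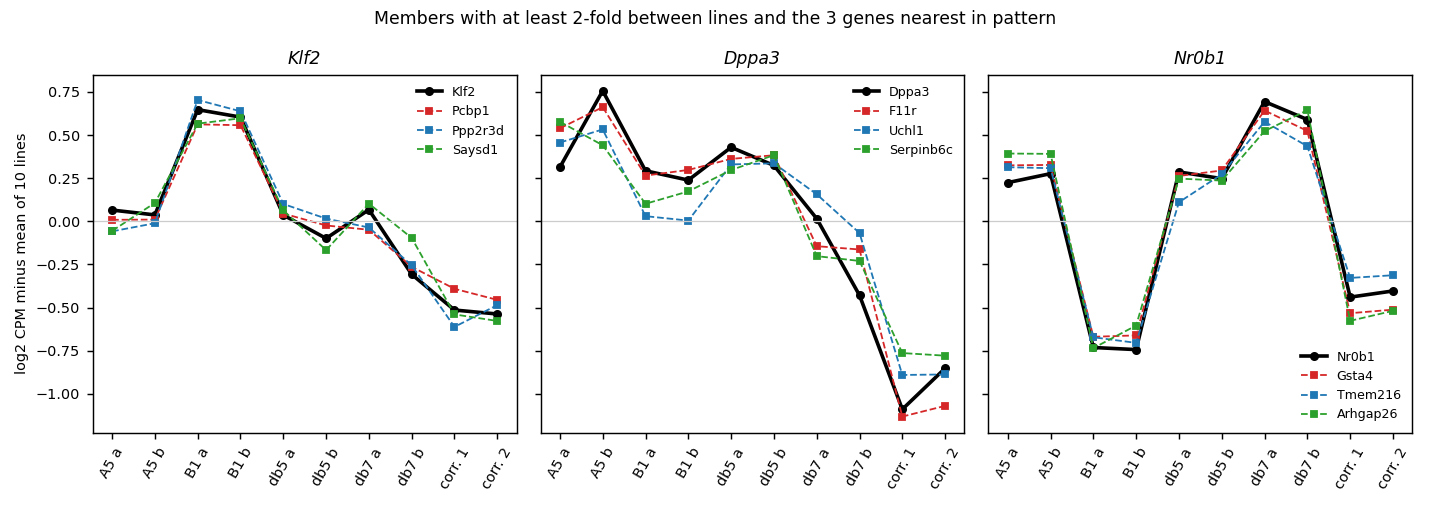
Log2 CPM minus the mean of 10 lines (y axis) by line (x axis) for Klf2, Dppa3 and Nr0b1 (black, circles) and the 3 genes nearest to each in pattern (dashed, squares). Lines join points only to guide the eye. Klf2 and its neighbours peak in B1 lines, Dppa3 and its neighbours are lowest in corrected lines, and Nr0b1 and its neighbours are low in B1 and corrected lines.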

How the data were processed

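The deposited table holds the authors' estimated counts, 1 row per Ensembl gene. Stranded mRNA libraries were made from total RNA, per the labels' protocols, and kallisto and GRCm38 are named in the submitters' processing notes. No version, and no account of how transcripts were summed, is given in the sources used here. Of 52143 identifiers 51336 matched GENCODE M21 (99.38% of counts). Such counts share out reads among like transcripts, and 79.7% were whole within 1e-06.

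Counts were rounded and summed per line, since the labels do not say that duplicates were separate cultures. All 10 lines entered 1 edgeR 4.0.16 quasi-likelihood fit (R 4.3.3, filterByExpr, TMM) by group and 1 by name, with Benjamini-Hochberg adjustment over 19700 genes. The fit was run on simulated counts drawn independently for each line, with the same spread for every gene. Near copies under a name were not simulated, so that run cannot show how the group tests behave with them. The members and gene lists were chosen with earlier results of these data known. From each list the text names up to 3 called genes of lowest p per group comparison, plus Klf4, Nanog, Stat3, Socs3, Pou5f1, Sox2, Otx2, Fgf5 and Tcf7l1. Alternatives were other scalings, filters, units and fits, DESeq2 1.42.0, limma 3.58.1 (voom), and leaving out each line. For db/db against control and corrected against db/db, a log2 ratio of mean CPM without a test was added. The 95% intervals cover the spread between lines only. Python 3.11.15, pandas 2.3.3 and matplotlib 3.10.9 made tables and figures.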

Additional observations from a re-analysis of the deposited data

Results flagged for a closer look

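In 2 of 20 groups of 4 lines examined (10 genes, control and db/db), 1 line stood apart from the other 3 by more than Dixon's 95% critical value. With 4 independent lines, chance would flag about 1 in 20 groups. Lines of a name are near copies, so that rate does not hold here, and the flags are descriptions only. Tfcp2l1 in db/db lines had a gap of 0.9212 of the group's range: the b line of db7 was at 376.5 CPM and the other 3 at 307.1, 310.8 and 312.5. Both libraries of that line were high, at 393.7 and 360.3 CPM. Dppa3 in control lines had a gap of 0.8765 of the range: the b line of A5 was at 4.768 CPM and the other 3 at 3.322 to 3.5. Its 2 libraries were at 4.433 and 5.132 CPM.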

How the results depend on the processing

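Of 1440 single-gene values recomputed under alternatives, 1330 were counted as unchanged, 47 lost the call, 42 gained one and 21 changed sign. Unchanged values with a test kept their direction and their side of the threshold. The log2 ratio of mean CPM, run for db/db against control and corrected against db/db, has no test. Its values were counted as unchanged when they kept their direction and lay within the SE of the main value. The numbers of genes called among the 10 in the 4 comparisons that involve names stayed within 1.5 times. In db/db against control lines the number called was 2. It was 4 with DESeq2's test, with limma-voom, with single libraries under a replicate block and with single libraries and no block, 1 in a fit of only the compared lines, 0 with each shared name as a unit, and 1 to 4 when each line was left out. Taking each shared name as a unit, edgeR called 34 genes of the whole table. In corrected against db/db lines the number called was 4, 7 in a fit of the compared lines, 1 with each shared name as a unit, and 1 to 5 when each line was left out. In corrected against control lines it was 4, and 1 to 4 when each line was left out (1 without corrected line 1 and 2 without corrected line 2). Over all genes, db/db against control went from 3332 calls to 1991 and 2021 without control lines 2 and 4, 6188 with the replicate block and 6175 with single libraries and no block. Corrected against db/db went from 7235 to 3113 and 3183 without corrected lines 1 and 2 and to 3281 with the shared name. Corrected against control went from 6537 to 2438 and 2377 without them and to 2547 with the shared name. Fewer samples enter these fits, and a lone corrected line is assumed to vary like the other groups. With library size alone the median of all genes moved to 0.19 in corrected against db/db (74.2% of calls up, against 50.9%), 0.12 against control (68.3%, against 48.7%), 0.22 against db5 (67.2%, against 51.4%) and 0.19 against db7 (68.8%, against 51%), and the split in db/db against control was 33.5% (against 43.8%). The cause was not tested. Signs changed for small, uncalled values. In db/db against control, Klf5 became -0.0341 with library size alone, -0.00425 with a minimum mean of 1 CPM, -0.0188 with the replicate block and -0.0249 with single libraries and no block, and spanned -0.0832 to 0.0938 when each line was left out, while Tcl1 spanned -0.137 to 0.0201. In corrected against control, leaving out each line gave -0.025 to 0.152 for Klf5, -0.0753 to 0.14 for Tfcp2l1 and -0.137 to 0.025 for Prdm14, and library size alone gave 0.0382 for Zfp42 and 0.0787 for Prdm14. Leaving out each line gave -0.281 to 0.0909 for Klf2 in db7 against db5 and -0.0515 to 0.22 for Tfcp2l1 in corrected against db7. With library size alone Zfp42 in corrected against db5 became 0.097 and Klf5 in corrected against db7 0.141, the latter 0.0184 with a minimum mean of 1 CPM. In 12 pairs of a control and a db/db line, same-numbered libraries deviated from their line means with correlations of 0.0119 to 0.531 over 9149 genes. All were positive, so to a varying extent the difference between duplicates went with their number. The main fits sum duplicates per line and do not pair samples by number. Of the 10 genes, 4 differed between first and second libraries in the same direction in all 7 control and db/db lines with both. In db/db against control lines, Klf2 and Nr0b1 gained calls on single libraries both with the block and without it. Depth limits Dppa3, with 41 to 162 counts per library.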
